A study of Mus musculus with 14 samples.

Results

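The genes described here are tumour necrosis factor, *Tnf*, with 4 receptors of its superfamily (*Tnfrsf1a*, *Tnfrsf1b*, *Cd40*, *Tnfrsf9*), the TNFα-induced gene *Tnfaip2* and 4 TNF receptor associated factors (*Traf1*, *Traf2*, *Traf3*, *Traf6*). They were taken by the gene name that the array files give, which yielded 14 of the 41174 probes other than controls, for 10 of 27962 gene names. Expression had been measured in mouse embryonic fibroblasts that lack p65, the *Rela* product and a subunit of NF-κB, and that were complemented by lentivirus as pools of selected cells. The pools carried wild type p65, the triple mutant KTR with lysines 310, 314 and 315 changed to arginine, the double mutant K314/315R, or the empty vector pTV. All were starved overnight and exposed for 3 h to mouse TNFα at 30 ng/ml, and untreated wild type cells were collected as well (0 h). Each group held 3 arrays of biological replicates whose RNA was isolated on different days, except K314/315R with 2 arrays. All groups share the p65(-/-) background. The paper describes no separate pools of a construct. Spread between pools was thus not measured, and construct and pool cannot be told apart.

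TNFα binds TNFR1, encoded by *Tnfrsf1a*, on most cells, and TNFR2, encoded by *Tnfrsf1b*, on fewer. TNFR1 recruits TRADD and RIPK1 and through them TRAF2 with the cIAP ubiquitin ligases, which activates the IKK kinases and releases NF-κB dimers such as p65:p50 into the nucleus. TNFR2, CD40 and 4-1BB, encoded by *Tnfrsf9*, lack a death domain and bind TRAF proteins directly. TRAF3 restrains the alternative NF-κB pathway, TRAF6 serves CD40 and the Toll-like and interleukin-1 receptors, and TRAF1 is an adaptor that binds TRAF2.

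Levels are given as log2 intensity relative to the 75th percentile of the same array, so that 0 is the signal that 75% of the probes do not reach. They compare 1 probe between samples and not probes with each other. The 75th percentile lay between 967 and 1442 intensity units, and 49.9% to 57.7% of the spots were well above background. Slides 1 to 3 carried 1 replicate each of every group but K314/315R, whose 2 arrays shared slide 4, so that for K314/315R slide and cell line cannot be told apart. Of 9 fibroblast markers, 8 were well above background on all 14 arrays, while of 9 macrophage markers 0 were on all arrays and 5 on none. The summed macrophage level was 0.206 to 0.235 times the 75th percentile in pTV and 0.223 to 0.237 in wild type at 3 h. The brighter *Rela* probe read 1.52 to 1.54 in wild type at 3 h and 1.00 to 1.34 in pTV (log2 fold change 0.35, limma adjusted p = 0.213). The dimmer one read −2.07 to −1.88 and −2.84 to −2.31, without overlap (0.61, adjusted p = 0.0218). Neither checks the labels, as their place relative to the disruption is unknown here.

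At 3 h of TNFα, the cells with wild type p65 had more *Tnfaip2*, *Tnfrsf9*, *Cd40* and *Tnfrsf1b* RNA than the pTV cells, by 23.4-fold, 8.30-fold, at least 2.26-fold and 3.13-fold. These 4 of the 9 testable genes passed a fold over 2 and an adjusted p under 0.05, beside 3.59% of all 22172 tested probes, and 0 passed in the lower direction, where 1.46% of all probes did. Without the limit on the fold, 8 of 9 were higher at an adjusted p under 0.05, beside 8.03% of all probes, since *Traf1*, *Traf3*, *Traf2* and *Tnfrsf1a* passed with fold changes of 1.30 to 1.53. In the TNF response, wild type at 3 h over 0 h, TNFα raised *Tnfaip2* by 3.89-fold and *Traf1* by 2.89-fold. These were 2 of 9 genes at a fold over 1.8 (1.12% of all probes), and 0 fell (0.424% of all probes). The fit did not use the replicate numbers, and with them as a block *Cd40* passed too (adjusted p = 0.0403). *Cd40* entered the test only through groups in which it was high, and without it 3 of 8 genes were called higher over pTV. The median log2 fold change of the 9 genes was 0.62 in wild type over pTV and 0.36 with TNFα, beside −0.03 and −0.04 over all tested probes. The ninth gene in wild type over pTV, *Traf6*, and the tenth of the set, *Tnf*, are described with the adaptors and the ligand. As RNA was taken from whole pools, fewer expressing cells and less RNA per cell cannot be told apart.

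**Figure D1:**
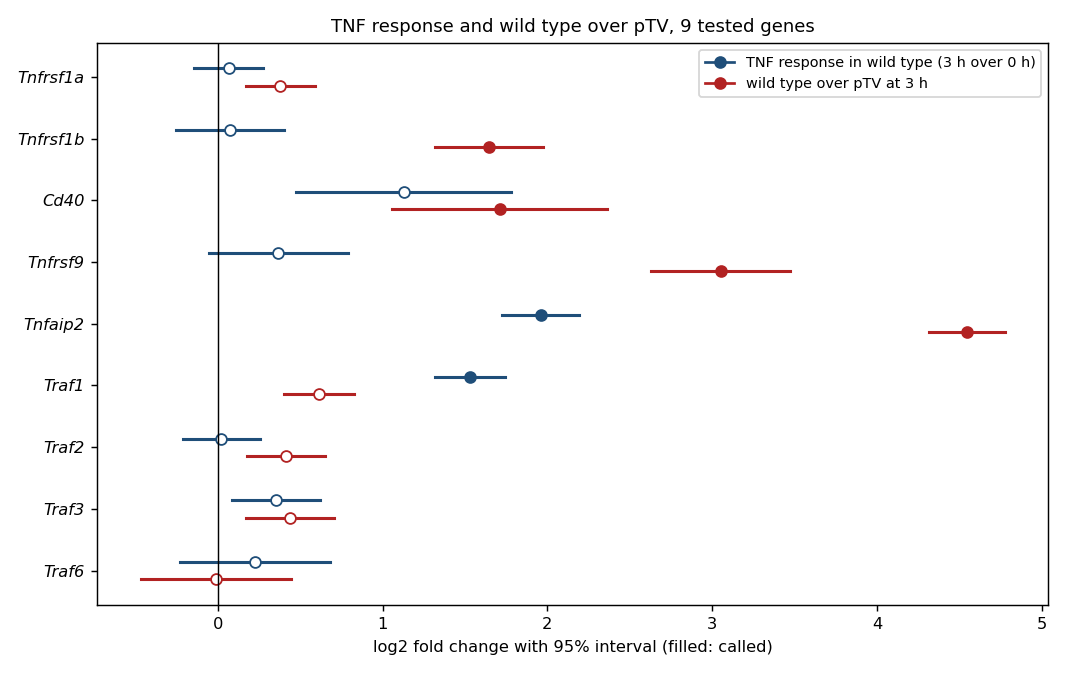
Log2 fold change (x axis) of the 9 tested genes (y axis) with its 95% interval from limma, for wild type at 3 h over 0 h (blue) and wild type over pTV at 3 h (red). Filled points passed the fold limit and the adjusted p. *Tnfaip2* is filled in both, *Traf1* in the TNF response only, and *Tnfrsf1b*, *Cd40* and *Tnfrsf9* in wild type over pTV only.

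The promoters of the genes called in either comparison are shown because p65 dimers bind κB motifs. RefSeq windows on GRCm38.p6 were held for 9 of the 10 genes, *Cd40* being the exception, in 10 windows of 300 bases from 250 before to 50 after the transcription start. Both strands were searched for the κB consensus of 10 bases, with overlapping matches counted separately, and for the stricter GGGANTTTC. The 250 bases before the start are printed 5′ to 3′ on the gene's strand, with matches to the consensus in capitals.
*Tnfaip2*, chr12:111442411-111442660, plus strand: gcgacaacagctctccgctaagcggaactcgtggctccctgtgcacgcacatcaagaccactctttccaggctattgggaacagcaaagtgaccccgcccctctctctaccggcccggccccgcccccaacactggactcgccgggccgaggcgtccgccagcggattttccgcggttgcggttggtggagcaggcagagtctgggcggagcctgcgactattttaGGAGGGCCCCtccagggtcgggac
*Tnfrsf9*, downstream of 2 start sites, chr4:150927749-150927998, plus strand: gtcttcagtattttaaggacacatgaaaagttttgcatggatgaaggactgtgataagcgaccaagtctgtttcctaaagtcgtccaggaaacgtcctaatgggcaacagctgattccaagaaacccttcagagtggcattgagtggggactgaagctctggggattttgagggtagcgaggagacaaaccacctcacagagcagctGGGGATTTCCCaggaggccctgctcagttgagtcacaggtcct
*Tnfrsf1b*, chr4:145246871-145247120, minus strand: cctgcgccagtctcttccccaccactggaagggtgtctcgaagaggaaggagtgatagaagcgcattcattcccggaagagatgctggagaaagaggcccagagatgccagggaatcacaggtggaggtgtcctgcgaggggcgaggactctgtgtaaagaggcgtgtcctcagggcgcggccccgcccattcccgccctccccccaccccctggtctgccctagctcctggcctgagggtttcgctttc
*Traf1*, chr2:34961773-34962022, minus strand: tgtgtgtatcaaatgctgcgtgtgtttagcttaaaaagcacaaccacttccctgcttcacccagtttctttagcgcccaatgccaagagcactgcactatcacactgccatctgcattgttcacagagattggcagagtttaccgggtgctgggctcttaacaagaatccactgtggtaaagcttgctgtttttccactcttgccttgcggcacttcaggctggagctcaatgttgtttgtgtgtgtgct

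The consensus was found in windows of 3 of the 9 genes, *Tnfaip2*, *Tnfrsf9* and *Traf3*, and in 8.46% of all 32851 windows of the same length. In *Tnfrsf9* 3 overlapping matches lay from 43 to 33 bases before the downstream start site, GGGGATTTCC and GGGATTTCCC on the gene's strand and GGGAAATCCC on the other. *Traf3* held GGGGATTTCC in the 10 bases directly before its start, and *Tnfaip2* held GGGGCCCTCC on the opposite strand from 24 to 15 bases before its start. GGGANTTTC was in 0 of the 10 windows and in 1.11% of all windows. The window of the upstream start site of *Tnfrsf9*, which is not printed, held 0 matches. A match is a run of letters and not a measured binding site, and windows without one say nothing of sites further away.

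*Tnfaip2*, a gene named for its induction by TNFα, had the largest TNF response and the largest difference over pTV at 3 h of the 9 tested genes. Its levels were 5.19, 5.01 and 5.07 in wild type at 3 h, 3.20, 3.17 and 3.03 at 0 h, and 0.36, 0.59 and 0.68 in pTV at 3 h. These 3 groups did not overlap, and the pTV arrays at 3 h lay below the unstimulated wild type arrays. TNFα raised it by 1.96 on the log2 scale (95% interval 1.73 to 2.19, limma adjusted p = 1.7e-06). Wild type over pTV was 4.55 (4.31 to 4.78, adjusted p = 1.4e-10), and within slides 1, 2 and 3 it was 4.83, 4.42 and 4.39. KTR read 5.13, 4.93 and 5.14 and K314/315R 5.25 and 5.12, and overlapped wild type.

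**Figure D2:**
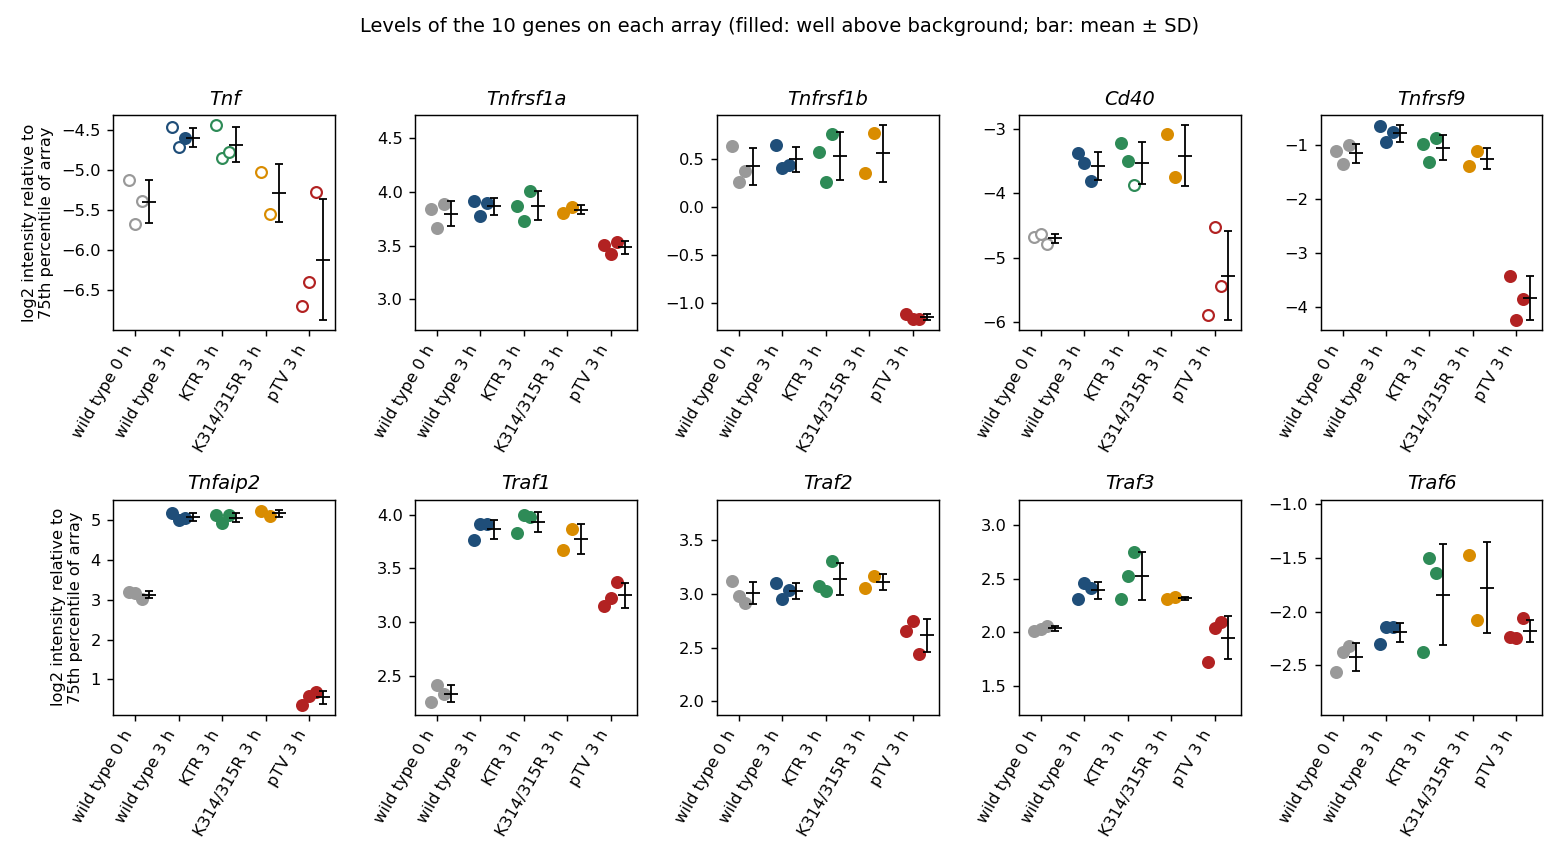
Levels of the 10 genes by group (x axis) as log2 intensity relative to the 75th percentile of the array (y axis, whose range differs between panels), 1 point per array, filled where the probe was well above background, with the mean ± SD of each group (n = 3, K314/315R n = 2) beside it. The pTV arrays lie below all other groups for *Tnfaip2*, *Tnfrsf9* and *Tnfrsf1b*, and *Traf1* has pTV between wild type at 3 h and at 0 h.

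Among the receptors, *Tnfrsf9* differed most. Its protein, 4-1BB, is a costimulatory receptor best known on activated T cells. The brighter of its probes read −0.65, −0.95 and −0.76 in wild type at 3 h and −3.42, −4.24 and −3.86 in pTV, with no overlap. The log2 fold change was 3.05 (2.63 to 3.47, adjusted p = 4.8e-07), and 2.78, 3.29 and 3.10 within the slides. It was 2.19 with normexp, a model-based background correction, fitted without outlier spots (adjusted p = 9.0e-08). The lowest value of 28 alternatives, single arrays left out included, was 1.72. Unstimulated wild type cells read −1.11, −1.35 and −1.0, close below the treated ones, and the TNF response of 0.37 (−0.05 to 0.79, adjusted p = 0.377) did not pass. The gene was thus well above background and higher than in pTV at 3 h already in untreated cells with wild type p65. The second probe of *Tnfrsf9* was not well above background on any of the 14 arrays.

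*Tnfrsf1b*, which encodes TNFR2, had the same order of means for wild type at 3 h, wild type at 0 h and pTV, at a smaller distance. Its brighter probe, spotted 10 times per array, read 0.65, 0.40 and 0.44 in wild type at 3 h, 0.63, 0.26 and 0.38 at 0 h and −1.11, −1.17 and −1.16 in pTV. Wild type over pTV was 1.65 (1.32 to 1.97, adjusted p = 1.0e-05), and 1.76, 1.58 and 1.60 within the slides. With TNFα it differed by 0.07 from untreated cells (−0.26 to 0.40, adjusted p = 0.886), and the arrays of both times overlapped. The dimmer probe of the same transcript accession, a single spot, was well above background on all 14 arrays and disagreed. It lay between −3.27 and −2.39 on all arrays, and its wild type over pTV was −0.28 (−0.71 to 0.16, adjusted p = 0.441). The mean of both probes gave 0.68 (adjusted p = 0.00458), under the limit on the fold.

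*Tnfrsf1a*, the receptor that starts most TNFα signalling in fibroblasts, was nearly level. It read 3.92, 3.78 and 3.90 in wild type at 3 h, 3.84, 3.66 and 3.89 at 0 h and 3.50, 3.42 and 3.53 in pTV. The pTV arrays were the 3 lowest of the 14, with wild type over pTV at 0.38 (0.17 to 0.59, adjusted p = 0.0183), which is 1.30-fold and under the limit on the fold. Its TNF response was 0.07 (−0.14 to 0.28, adjusted p = 0.811).

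*Cd40*, the receptor of CD40 ligand, was near the detection limit, and its probe was spotted 10 times per array. Mean levels were −3.37, −3.53 and −3.80 in wild type at 3 h, −4.68, −4.64 and −4.78 at 0 h and −5.88, −4.52 and −5.43 in pTV. On the wild type arrays at 3 h all 10 spots were well above background, while 1 or 2 were at 0 h and 0 or 1 in pTV. Since 0 arrays at 0 h or of pTV passed, the differences are bounds, set by the lowest signal that was well above background on each dim array. Wild type over pTV was at least 2.26-fold (log2 fold change as measured 1.71, adjusted p = 0.00181). The TNF response was at least 2.01-fold (1.13, adjusted p = 0.0549), which missed the threshold. These bounds make no allowance for error between arrays. The 95% intervals of the folds as measured, 2.08 to 5.14 and 1.39 to 3.43, reached below them. Within slides 1, 2 and 3 wild type over pTV was 2.51, 0.99 and 1.63 and the TNF response 1.30, 1.10 and 0.98. The TNF response passed with the replicate number as a block (adjusted p = 0.0403), with slide as a random block (0.0199), in the authors' normalized values (0.0125), on the 2 groups alone (0.00574), with the median of the spots (0.00595) and without pTV replicate 1 or 2 (0.0277 and 0.0135). On pTV replicate 2, a single spot of 219 intensity units stood among spots with a median of 23.9, and the median of the spots gave 2.05 for wild type over pTV (adjusted p = 1.4e-05). With normexp, a model-based background correction, it was 0.74 when fitted to all spots (adjusted p = 1.000) and 0.65 when fitted without outlier spots (adjusted p = 0.0101), which ended the call both times. The TNF response with normexp fitted without outlier spots was 0.47 (adjusted p = 0.123). It stayed uncalled in 19 of 27 alternatives, single arrays left out included. Of the mutant arrays, KTR replicate 3 had 4 of 10 spots well above background, and the other 4 had 9 or 10.

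The ligand itself could hardly be measured. *Tnf* had 1 probe with 10 spots, which was well above background on 1 of the 14 arrays, wild type at 3 h replicate 3 with 6 of 10 spots, so it did not enter the test. Its levels were −4.47, −4.72 and −4.60 in wild type at 3 h, −5.13, −5.67 and −5.38 at 0 h and −6.70, −6.39 and −5.27 in pTV. KTR read −4.44, −4.85 and −4.77 and K314/315R −5.03 and −5.55. In intensity units the median spot was 37.7 to 48.7 in wild type at 3 h, 13.7 to 27.3 at 0 h and 11 to 27.7 in pTV. Without any filter on dim probes wild type over pTV was 1.53 (adjusted p = 0.0128) and the TNF response 0.80 (adjusted p = 0.374). As both groups of each pair were below the detection limit on most arrays, these log2 differences as measured are not read as folds.

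**Figure D3:**
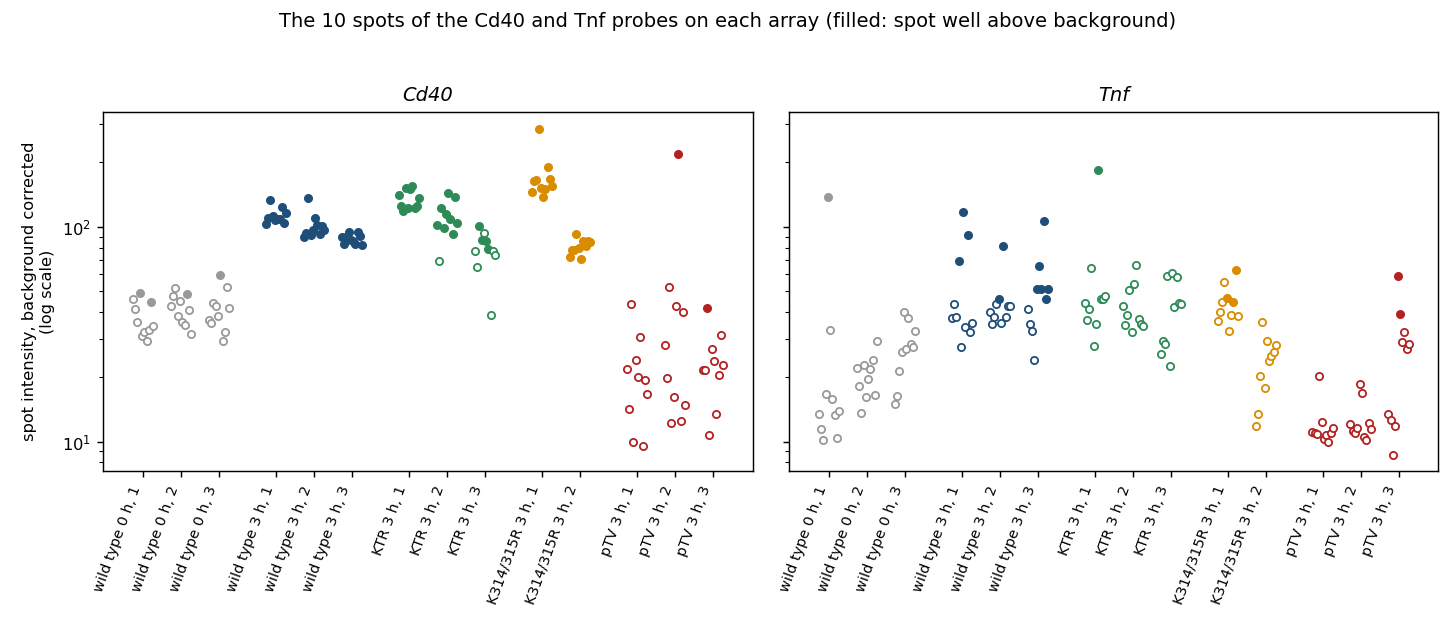
Background-corrected intensity (y axis, log scale) of each of the 10 spots of the *Cd40* and *Tnf* probes on each array (x axis: group, replicate), filled where the spot was well above background. All 10 *Cd40* spots are filled on the wild type arrays at 3 h, at most 2 on any array at 0 h or of pTV, and single bright spots stand out on pTV replicate 2 for *Cd40* and on wild type 0 h replicate 1 and KTR replicate 1 for *Tnf*.

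*Traf1* was the adaptor that TNFα raised. It read 3.76, 3.92 and 3.92 in wild type at 3 h and 2.25, 2.41 and 2.33 at 0 h, a log2 fold change of 1.53 (1.32 to 1.74, adjusted p = 7.2e-06) and of 1.50 to 1.58 within the slides. The pTV arrays, at 3.15, 3.22 and 3.38, lay between the treated and the untreated wild type arrays without overlap. Wild type over pTV was 0.62 (0.40 to 0.83, adjusted p = 0.000896), which is 1.53-fold and under the limit of 2. Normexp fitted to all spots gave a TNF response of 1.22 (adjusted p = 0.157), and fitted without outlier spots 1.54 (adjusted p = 7.2e-07).

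To place the pTV cells, which are not measured here without TNFα, pTV at 3 h was compared with wild type at 0 h, a comparison added after the levels of *Traf1* had been seen. *Traf1* was higher in pTV at 3 h by 0.91 on the log2 scale (0.70 to 1.13, adjusted p = 3.8e-05), at a fold over 1.8, as were 2.68% of all probes. *Tnfrsf9* (−2.69, adjusted p = 1.8e-06), *Tnfaip2* (−2.59, adjusted p = 3.5e-08) and *Tnfrsf1b* (−1.57, adjusted p = 1.5e-05) were lower, as were 4.74% of all probes. Of the 9 genes, *Traf1* was thus the 1 called higher and these 3 were called lower. With normexp fitted to all spots *Traf1* (adjusted p = 0.201) and *Tnfrsf9* (0.161) lost these calls. *Tnfrsf1b* lost its call with the mean of both probes (−0.75, adjusted p = 0.00190), which was under the limit on the fold. Its dimmer probe gave 0.07 (adjusted p = 0.852). This pair of groups differs in both p65 and TNFα, so the part of each cannot be told apart.

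The other adaptors differed less. *Traf2*, the adaptor of TNFR1 and TNFR2 complexes, read 3.10, 2.95 and 3.04 in wild type at 3 h, 3.12, 2.98 and 2.92 at 0 h and 2.65, 2.74 and 2.44 in pTV. Its pTV arrays were the 3 lowest of the 14, and wild type over pTV was 0.42 (0.18 to 0.65, adjusted p = 0.0217). *Traf3* read 2.31, 2.46 and 2.41 in wild type at 3 h, 2.01, 2.03 and 2.06 at 0 h and 1.72, 2.04 and 2.09 in pTV. Its wild type over pTV was 0.44 (0.17 to 0.71, adjusted p = 0.0312), and its TNF response of 0.36 (0.09 to 0.62, adjusted p = 0.146) did not pass although the groups did not overlap. Within slides 1, 2 and 3 it was 0.29, 0.42 and 0.35, and blocking on replicate number gave an adjusted p of 0.0351, still under the limit on the fold. Both differences over pTV were under the limit on the fold, at 1.33-fold and 1.36-fold. The TNF response of *Traf2* was 0.02 (−0.21 to 0.26, adjusted p = 0.955).

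*Traf6* had 3 probes. The brightest read −2.30, −2.14 and −2.14 in wild type at 3 h, −2.56, −2.37 and −2.31 at 0 h and −2.23, −2.25 and −2.06 in pTV. Wild type over pTV was −0.01 (−0.47 to 0.44, adjusted p = 0.985) and the TNF response 0.23 (−0.23 to 0.68, adjusted p = 0.680). A second probe, well above background on 12 arrays, gave −0.03 for wild type over pTV (adjusted p = 0.947) and 0.40 for the TNF response (adjusted p = 0.269). The third was not well above background on any array. *Traf6* was the 1 tested gene of the set that did not pass over pTV at any fold.

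Whether the lysine mutants of p65 kept the levels of these genes was asked with KTR and K314/315R over wild type at 3 h. Of the 9 genes 0 were called in KTR, beside 0.167% of all probes, and 0 in K314/315R, beside 1.21%, by limma at a fold over 1.8 in either direction and an adjusted p under 0.05. Without adjustment, 0 genes had p under 0.05 in either mutant. Between the mutants, KTR over K314/315R had 0 calls, beside 2.55% of all probes, and 0 of the brightest probes had an unadjusted p under 0.05. The second *Traf6* probe gave 0.56 there (0.13 to 0.99, unadjusted p = 0.0154, adjusted p = 0.126 by limma), without overlap. The brightest *Traf6* probe gave −0.07. In KTR, all 9 intervals of the difference lay inside the limits on the fold, from −0.69 to 0.81 on the log2 scale at their outermost. In K314/315R, 6 of 9 did, while those of *Tnfrsf9*, *Cd40* and *Traf6* reached past, to −0.94, 0.89 and 0.93.

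*Tnfrsf9* had the lowest difference of the 9 tested genes in both mutants. KTR read −0.98, −1.31 and −0.87 and K314/315R −1.39 and −1.12, against −0.65, −0.95 and −0.76 in wild type. The log2 fold changes over wild type were −0.27 (−0.69 to 0.15, adjusted p = 0.733) and −0.47 (−0.94 to 0.01, adjusted p = 0.294), so neither passed. *Traf6* had the highest of the 9, 0.35 in KTR (−0.10 to 0.81, adjusted p = 0.668) and 0.42 in K314/315R (−0.09 to 0.93, adjusted p = 0.391), with KTR at −2.38, −1.50 and −1.64 and K314/315R at −1.48 and −2.07. Its second probe differed by −0.28 in K314/315R (−0.71 to 0.15, adjusted p = 0.510), so the probes disagree in sign there. For the *Tnfrsf9* probe and the brightest *Traf6* probe the K314/315R and wild type arrays did not overlap, which is 2 of 9 genes beside 36.2% of all probes. *Tnfaip2* differed from wild type by −0.02 in KTR (−0.26 to 0.21) and by 0.09 in K314/315R (−0.17 to 0.35). *Traf1* read 3.83, 3.99 and 3.98 in KTR and 3.67 and 3.87 in K314/315R, which overlapped wild type.

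**Figure D4:**
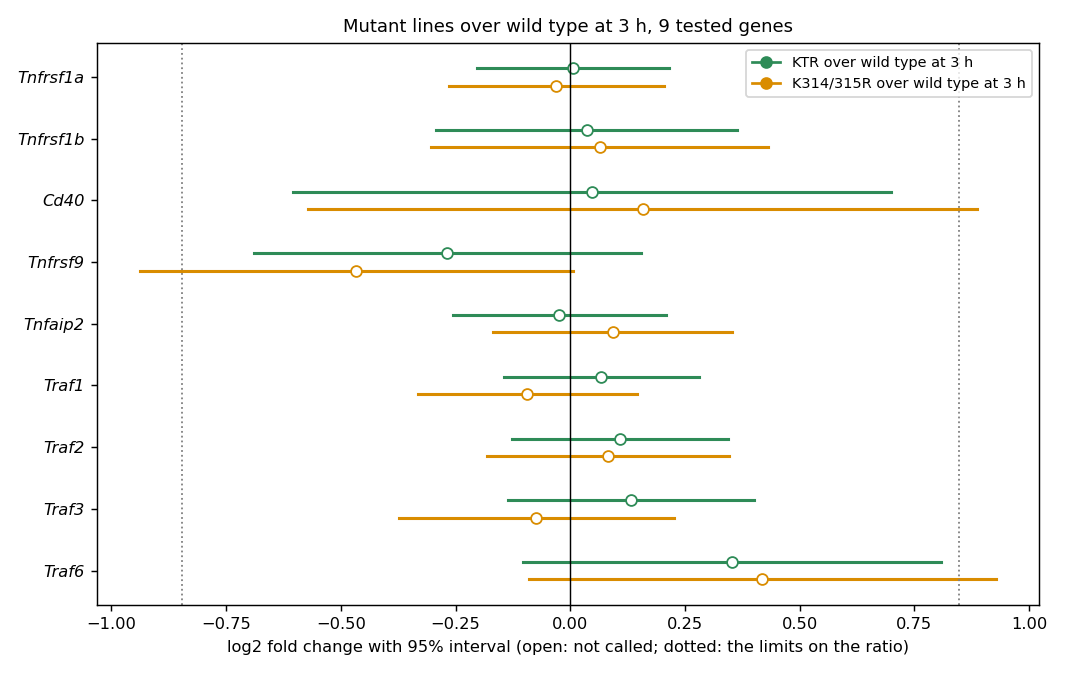
Log2 fold change (x axis) of KTR (green) and K314/315R (orange) over wild type at 3 h for the 9 tested genes (y axis), with its 95% interval from limma. Dotted lines mark a fold of 1.8 in either direction. All points are open, as 0 genes were called, and the intervals of *Tnfrsf9*, *Cd40* and *Traf6* in K314/315R cross a dotted line.

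Against pTV, at a fold over 2, both mutants gave 4 calls in the higher direction, *Tnfaip2*, *Tnfrsf9*, *Tnfrsf1b* and *Cd40*, beside 3.32% of all probes for KTR and 4.18% for K314/315R. All comparisons share the pTV arrays. *Tnfaip2* was 23.0-fold higher in KTR and 24.9-fold in K314/315R, with 23.4-fold in wild type. *Tnfrsf9* was 6.89-fold and 6.01-fold higher, with 8.30-fold in wild type. *Tnfrsf1b* was 3.21-fold and 3.27-fold higher, with 3.13-fold in wild type, and *Cd40* at least 2.33-fold and 2.52-fold. The dimmer probe of *Tnfrsf1b* gave −0.18 in KTR (adjusted p = 0.610) and −0.35 in K314/315R (adjusted p = 0.275) on the log2 scale, and the mean of both probes 0.75 and 0.68, under the limit on the fold. With normexp fitted to all spots *Tnfrsf9* lost both calls (adjusted p = 0.110 in KTR and 0.284 in K314/315R), and with either normexp fit so did *Cd40*. At any fold, 8 of 9 genes in KTR, beside 9.27% of all probes, and 7 of 9 in K314/315R, beside 12.5%, were higher at an adjusted p under 0.05, *Traf3* in K314/315R being the difference (0.37, adjusted p = 0.0701).

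The other genes of the pathway were read from 5 lists with 88 genes, of which 65 could be tested. In wild type cells 9 of the 65 were called higher with TNFα (1.12% of all probes) and 0 lower (0.424%). Over pTV 11 were higher (3.59%) and 2 lower (1.46%), and 6 genes were higher in both. Both comparisons use the same wild type arrays at 3 h, and no share of all probes called in both is given. *Tnfsf4*, the OX40 ligand, is among these 6 but was well above background on the 3 wild type arrays at 3 h alone and entered the test through them, and without it 8 and 10 of 64 genes were higher. Its bound over pTV was 1.05-fold (log2 fold change with TNFα as measured 1.98, adjusted p = 0.00249). Of the other ligands, *Tnfsf11*, RANKL, was at least 4.76-fold higher with TNFα (adjusted p = 0.0153). *Ltb*, lymphotoxin β, was 6.17-fold higher in wild type over pTV. The receptors gave 2 of 14 higher with TNFα, *Fas* by 2.65-fold and *Eda2r* by 2.26-fold. *Fas*, a death receptor, had the largest fold over pTV of the genes called, 36.2-fold (adjusted p = 6.3e-08), with wild type at 5.63, 5.10 and 5.25 and pTV at 0.64, −0.42 and 0.23. The 2 genes lower in wild type over pTV were also receptors, *Tnfrsf12a*, the TWEAK receptor, at −1.16 (adjusted p = 0.000181) and *Ngfr* at −1.30 (adjusted p = 0.0349). *Ngfr* was well above background on 8 arrays, and normexp fitted without outlier spots gave −0.68.

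Among 26 tested adaptors, *Birc3*, which encodes the ubiquitin ligase cIAP2, was higher with TNFα (2.45-fold) and over pTV (2.50-fold). *Tank* passed in the TNF response (1.93-fold) and stayed under a fold of 2 over pTV, and *Birc2*, *Ikbke* and *Tifa* were higher over pTV by 2.47-fold, 3.46-fold and 2.70-fold. Of 8 tested genes in the list of other TNFα-induced protein genes, which also holds *Tnip* genes, 3 were higher in both comparisons. These were *Tnfaip3*, which encodes the NF-κB inhibitor A20, and *Tnip1* and *Tnip3*, whose products bind A20. *Tnfaip3* was 3.83-fold higher with TNFα and 11.4-fold over pTV, and *Tnip1* 2.19-fold and 5.47-fold. *Tnip3* was 2.07-fold higher with TNFα and at least 4.18-fold over pTV, where it was not well above background on any pTV array. The array files name it *9030611K07Rik*, and *Tifa* *T2bp*. Of 11 genes of TNF processing and *Tnf* mRNA control, *Rhbdf2*, an iRhom that TACE needs to shed TNFα, was higher over pTV (2.72-fold). The list medians on the log2 scale in wild type over pTV were 1.00 for ligands, 0.03 for receptors, 0.16 for adaptors, 0.36 for induced protein genes and 0.00 for processing, beside −0.03 over all probes.

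Over wild type, 1 of the 65 pathway genes was called in KTR (0.167% of all probes) and 1 in K314/315R (1.21%), and *Tnfsf12* is named after its values were seen. *Tnip3* was lower in KTR than in wild type by 1.53 on the log2 scale (adjusted p = 0.0142), with −3.63, −4.24 and −4.80 in KTR, of which 1 array was well above background, and −2.66, −2.77 and −2.66 in wild type. It lost the call when any 1 of the wild type arrays at 3 h or KTR replicate 2 was left out (adjusted p from 0.0558 to 0.0824), and on the 2 groups alone (0.281). *Tnfsf12*, which encodes the ligand TWEAK, was lower in K314/315R by 1.48 (adjusted p = 0.00485), with −2.64 and −2.66 against −1.21, −1.04 and −1.28 in wild type. The *Tnfsf12* arrays of K314/315R were both on slide 4. *Tnfsf11* in the TNF response lost the call without wild type 3 h replicate 1, 2 or 3 or wild type 0 h replicate 1 or 2 (adjusted p from 0.0501 to 0.0601), and *Tnip3* without any 1 of the 6 wild type arrays (0.0566 to 0.0785). *Ngfr* over pTV lost it without wild type 3 h replicate 1 or 2 or pTV replicate 1 or 3 (0.0721 to 0.147), and on the 2 groups alone (0.0557). With no filter on dim probes *Tnip3* in the TNF response (0.0580) and *Ngfr* over pTV (0.0822) lost it too. With normexp fitted without outlier spots, *Tnfsf4*, *Eda2r* and *Tnip3* in the TNF response and *Ngfr* over pTV fell under the limit on the fold or missed the adjusted p.

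**Figure D5:**
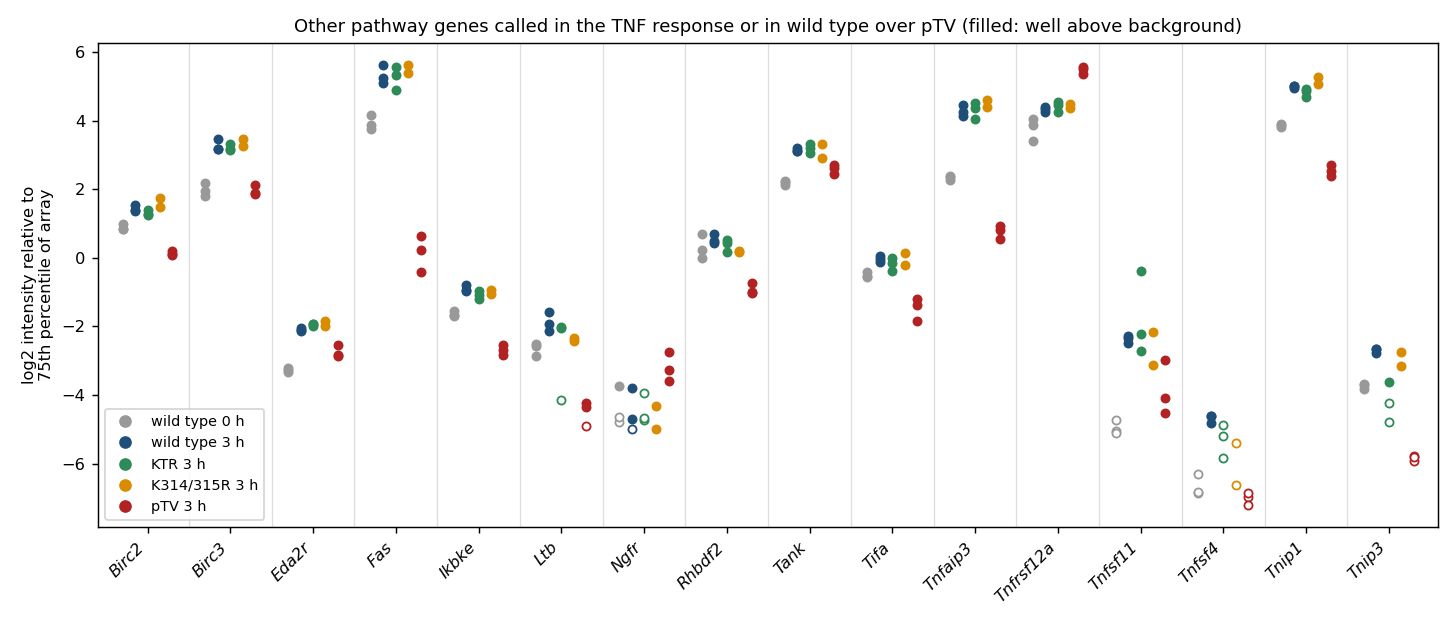
Levels (y axis, log2 intensity relative to the 75th percentile of the array) of the 16 other pathway genes called in the TNF response or in wild type over pTV (x axis, alphabetical), 1 point per array, coloured by group and filled where well above background. Levels compare groups within a gene. *Fas*, *Tnfaip3* and *Tnip1* have pTV far below all other groups, while *Tnfrsf12a* and *Ngfr* have pTV highest.

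Finally, the genes whose pattern over the 14 arrays was most like that of a called member were listed by Pearson correlation, as a description without a test, since all values come from the same arrays and groups. For *Tnfaip2* these were *Gpr84* (r = 0.997) and *Lincr* (0.995), and for *Traf1* *Csf2* (0.986) and *Ereg* (0.98). *Tnfrsf9* was nearest to *Robo2* and *Penk1* (both 0.989), and *Tnfrsf1b* to *Slpi* and *Serpina3f* (both 0.986). For *Cd40*, whose dim arrays carry more error, the highest values were 0.938 for *5730557B15Rik* and 0.934 for *Wnt3a*.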

How the data were processed

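RNA of 14 cultures was labelled with Cy3 and hybridised to 1-colour Agilent Whole Mouse Genome arrays. Per the file headers, the deposited intensity of each spot had been background-subtracted and detrended with Agilent Feature Extraction 9.1.1.1, or 9.1.3.1 for K314/315R. The authors' normalized series values, also an intensity, came from Rosetta Resolver and served as an alternative, and its scaling between arrays is not stated.

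From the deposited intensity, control and outlier spots were left out, spots of a probe were averaged, and log2 values were taken relative to the 75th percentile of the array. Probes entered the test where all arrays of any 1 group had them well above background (with several spots, at least 50% of these), which kept 22172 of 41174. limma 3.58.1 in R 4.3.3 was fitted to all 5 groups with Benjamini-Hochberg adjustment, and tested on simulated data. Calls needed an adjusted p under 0.05 and a fold over 2 against pTV, or over 1.8 in either direction otherwise. All 10 genes were named, each by its brightest probe, with pathway genes called in the TNF response or over pTV and the 2 nearest genes by correlation. The members and lists were chosen with earlier results of these data known. Where a group was below background on every array, an "at least" fold was set against the higher of its own signal and the lowest signal well above background, per array. It makes no allowance for error between arrays.

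Replicate numbers equal slides on slides 1 to 3, and residuals of same-numbered arrays correlated at 0.308 to 0.613 over 18 pairs, those of other numbers at −0.510 to 0.0954 over 36, so the numbers pair these arrays. The number of arrays limits the precision. Alternatives covered background correction, normalization, filters, blocks, probes and left-out arrays. The median of the spots, normexp without outlier spots and pTV at 3 h over wild type at 0 h were chosen after seeing the data.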

Additional observations from a re-analysis of the deposited data

Results flagged for a closer look

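The TWEAK gene *Tnfsf12* differed between the mutants by 1.46 on the log2 scale, KTR over K314/315R (adjusted p = 0.00312 by limma), with KTR at −1.39, −1.09 and −1.08 and K314/315R at −2.64 and −2.66. *Tnip3*, whose product binds A20, differed the other way, by −1.27 (adjusted p = 0.0170), with KTR at −3.63, −4.24 and −4.80 and K314/315R at −3.16 and −2.74. Both stand here because the effect of the 2 mutants against the same wild type arrays differed in a direct test. Fitted on these 2 groups alone, neither passed (adjusted p = 0.0626 and 0.181), and without K314/315R replicate 2 *Tnip3* gave −1.06 (adjusted p = 0.145). With slide as a random block *Tnip3* missed the threshold (adjusted p = 0.0679), and normexp fitted without outlier spots gave −0.81, under the limit on the fold. With normexp fitted to all spots neither passed (both adjusted p = 1.000). As the K314/315R arrays alone shared slide 4, slide and cell line cannot be told apart.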

How the results depend on the processing

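The calls of *Tnfaip2* in the TNF response and over pTV held under each of the 14 alternatives and with any 1 of the 14 arrays left out, and 0 of the called values reversed. Normexp fitted to all spots gave 1 call in the TNF response, 2 each in KTR and K314/315R over pTV and 2 in pTV at 3 h over wild type at 0 h, and 18 of 26 pathway results missed the threshold. On wild type 3 h replicate 1 that fit took a background SD of 1424 with 10 negative spots, and without outlier spots the SDs were 0.10 to 2.53. With no limit on the fold, wild type, KTR and K314/315R over pTV gave 8, 8 and 7 calls. Leaving out 1 array gave 2 to 3 calls in the TNF response, 4 in wild type, KTR or K314/315R over pTV, 0 in the comparisons among p65 forms and 4 to 5 in pTV over untreated wild type. The replicate block added *Cd40* to the TNF response (1.13, adjusted p = 0.0403, 3 calls) and changed no other call, while slide as a random block ended that of *Tnip3* between the mutants. Among differences that were not called, normexp turned the TNF response of *Tnfrsf1a* to −0.24, *Tnfrsf1b* to −0.037 and *Traf2* to −0.21, *Traf6* over pTV to 0.19, KTR over wild type of *Tnfaip2* to 0.35 and *Traf6* to −0.61, and K314/315R over wild type of *Traf6* to −0.10. Normexp without outlier spots gave 0.010 for *Tnfaip2* and −0.20 for *Traf6* in KTR over wild type, quantile normalization 0.0041 for *Traf6* over pTV, and the mean of probes −0.068 for *Tnfrsf1b* with TNFα. Leaving out single arrays turned some values of *Tnfrsf1b* (−0.0099 to 0.177) and *Traf2* (−0.022 to 0.079) with TNFα, *Traf6* over pTV (−0.045 to 0.049) and *Tnfaip2* in KTR over wild type (−0.064 to 0.043). The cause was not tested. Signal near background limits *Tnf*, *Cd40*, *Tnfsf4*, *Tnip3* and *Ngfr*.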
